A study of Drosophila melanogaster with 8 samples.

Results

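The potassium channels of the fly heart were followed through 10 genes: Irk1, Irk2, Irk3, SK, slo, Shab, Shal, sei, eag and Ork1. They were taken from the platform annotation as probe sets with a single gene symbol, and where a gene had several, the one with the highest mean over the 8 arrays stood for it. All 10 had such a probe set, of 11982 genes so represented. Hearts of adult Drosophila melanogaster, labelled female, had been measured on Affymetrix arrays in 4 groups of 2 arrays: GMH5xFOXO at 5 weeks, GMH5xyw at 5 weeks, GMH5xFOXO at 1 week and GMH5xyw at 1 week. The GMH5xFOXO groups are called FOXO hearts and the GMH5xyw groups control hearts, both by label. GMH5 is a heart-directed driver line carried by both crosses, yw is a marked laboratory background, and FOXO is the transcription factor restrained by insulin signalling. The labels name neither the FOXO transgene nor separate flies for the 2 arrays of a group, so the spread behind the p-values may be purely technical.

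Potassium channels let potassium leave the cell and so end the action potential and hold the membrane at rest between beats. Voltage-gated channels open on depolarisation, calcium-activated channels link the outward current to the calcium that drives contraction, and inward rectifiers and 2-pore channels carry the resting current. In the fly heart, loss of SK or of sei is known to disturb the rhythm, and Ork1 is known to set the pace of the beat.

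Several arrays stood apart or went against their label in transcripts of other tissues. The 12 late spermatogenesis transcripts had medians of 10.28 and 10.04 log2 signal in FOXO hearts at 5 weeks, of 5.05 and 4.67 in control hearts at 5 weeks, of 4.95 and 6.30 in FOXO hearts at 1 week, and of 8.28 and 8.24 in control hearts at 1 week. The 5 fat body and oenocyte transcripts specific to females had medians between 6.18 and 6.75 on both control 1 week arrays and on FOXO 1 week replicate 2, and between 13.03 and 13.44 on the other 5 arrays. FOXO 1 week replicate 1 alone had a high median of 6 oocyte transcripts, 10.67 against at most 7.51 elsewhere. The replicate difference had an SD of 0.828 in FOXO 1 week and between 0.218 and 0.298 in the other groups. The heart factor Hand, also listed as a pericardial nephrocyte marker, lay between 13.04 and 13.33 on all arrays. The other heart factors were less steady. With age the 5 measured, Hand included, had a median log2 fold change of -0.66 in control hearts (3 lower, 2 higher). In FOXO hearts it was -0.35 (4 lower, 1 higher), and 1 was called lower by limma, where 5.82% of all probe sets were. tin, the defining heart factor, and Mhc had no probe set with a single symbol here. The foxo probe set had log2 fold changes, FOXO minus control, of -0.15 ± 0.17 at 5 weeks and -0.05 ± 0.17 at 1 week (limma adjusted p = 0.653 and 0.913), so it was not measurably higher in the hearts labelled FOXO, and directions below go by the labels.

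All calls among the 10 were lower values of single channels. Irk3, an inward rectifier, was 2.58-fold lower in FOXO than in control hearts at 5 weeks, where the control hearts had the highest level of the 4 groups and FOXO hearts lay near both 1 week groups. Irk1, another inward rectifier, and SK, a calcium-activated channel, were 1.64-fold and 1.62-fold lower at 5 weeks than at 1 week in FOXO hearts. Ork1, a 2-pore leak channel, was 1.91-fold lower at 5 weeks than at 1 week in control hearts. No potassium channel among the 10 rose past the test in any comparison. The groups compared also differed in transcripts of other tissues. From 1 to 5 weeks the female-specific transcripts had a median log2 fold change of 6.78 in control and 3.29 in FOXO hearts. The late spermatogenesis transcripts had -3.29 in control and 4.53 in FOXO hearts. Between FOXO and control hearts at 5 weeks these medians were 0.17 and 5.25. Age and cross cannot be told apart from these differences, whose part in the channel values was not tested.

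The test was limma across all 18769 probe sets that are not array controls, with 1 mean per group, and a probe set was called at a Benjamini-Hochberg adjusted p under 0.05. Between FOXO and control hearts at 5 weeks 1 of the 10 channels was called, lower, where 10.4% of all probe sets were called (3.07% lower, 7.35% higher). At 1 week 0 of the 10 were called by limma, and 4.33% of all probe sets were called (3.87% lower, 0.464% higher). An unadjusted p under 0.05 was seen for 1 of the 10, and for 15.6% of all probe sets. Between 5 weeks and 1 week 2 of the 10 were called in FOXO hearts, both lower, against 15.2% of all probe sets (5.82% lower, 9.43% higher). In control hearts 1 was called, lower, against 6.91% (4.57% lower, 2.34% higher). A change of the FOXO effect from 1 to 5 weeks was called for 1 of the 10, lower, against 9.41% (2.13% lower, 7.28% higher). With 10 genes these counts lie near the share of all probe sets.

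Directions were counted over all 10 channels, called or not. In FOXO hearts 9 of the 10 channels had a lower mean at 5 weeks than at 1 week, with a median log2 fold change of -0.50, against -0.15 over all probe sets, of which 64.2% were negative. In control hearts 4 of the 10 were lower at 5 weeks, with a median of 0.16, against 0.05 and 42.5% negative over all probe sets. Between FOXO and control hearts at 5 weeks 7 of the 10 were lower, with a median of -0.36, against -0.16 over all probe sets, of which 69.6% were negative. At 1 week 4 were lower, with a median of 0.05, against 0.04 and 44% negative. The count of lower channels thus lay near the share of all probe sets between FOXO and control hearts at both ages. Over the 11982 genes with 1 probe set each, chosen like the channels, the median with age was -0.11 in FOXO hearts (7025 negative) and 0.03 in control hearts (5605 negative). Between FOXO and control hearts it was -0.12 at 5 weeks (7730 negative) and 0.01 at 1 week (5766 negative). The comparisons share arrays, so these counts are not independent of each other. With array medians centred, the called probe sets were 13.9% higher in place of 70.6% at 5 weeks between FOXO and control hearts, and 16.7% in place of 61.8% with age in FOXO hearts, and 7 of the 10 channels were then called in each of these comparisons, where 51% and 50.2% of all probe sets were called. FOXO hearts at 5 weeks were the group with the lowest mean for 7 of the 10 channels, and for 45.5% of all probe sets.

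**Figure D1:**
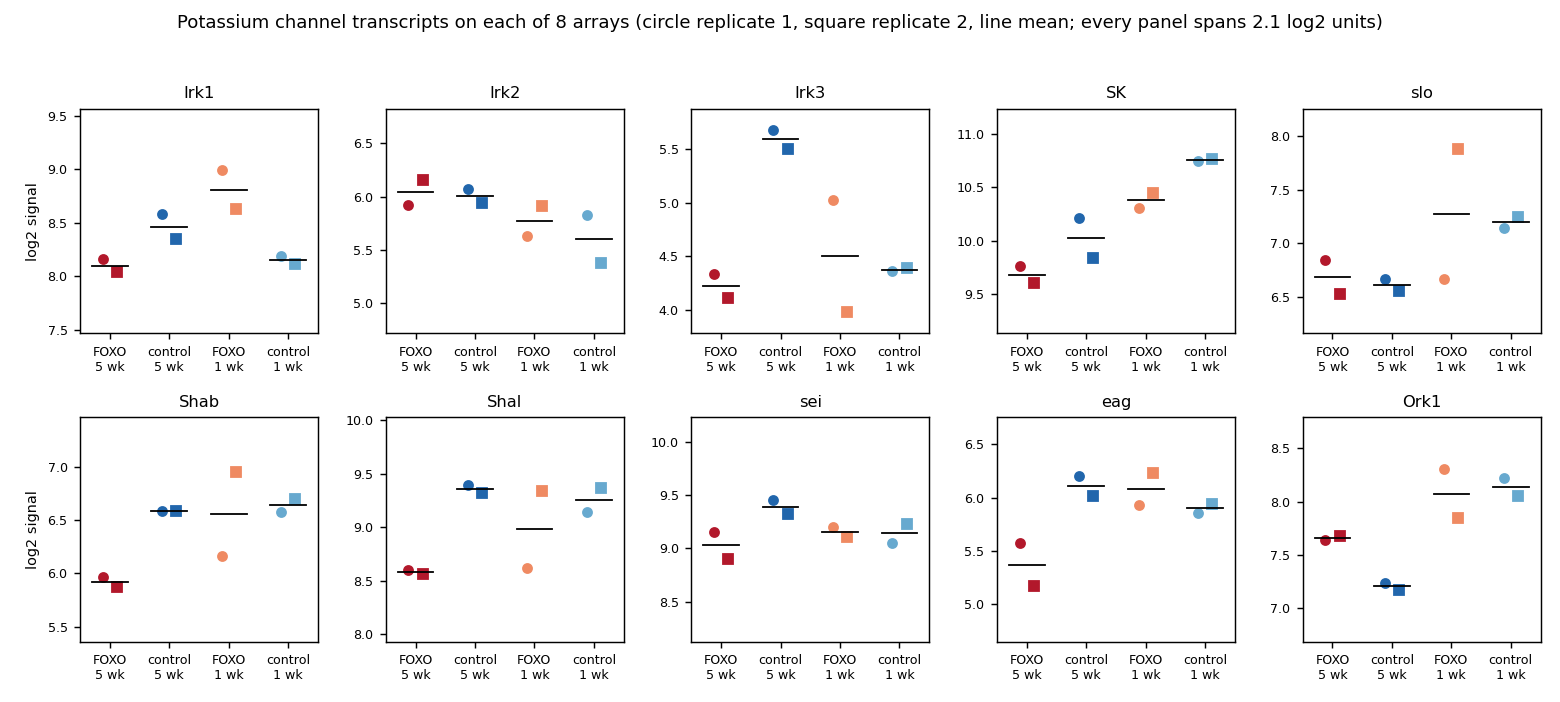
Log2 signal (vertical axis) of the 10 potassium channel transcripts on each array, by group (horizontal axis), with circles for replicate 1, squares for replicate 2 and lines for group means. All panels have the same vertical span, so that the separate position of Irk3 in control hearts at 5 weeks, at 5.68 and 5.51, and the wide pair of slo in FOXO hearts at 1 week, at 6.67 and 7.89, can be compared.

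Of the inward rectifiers, which pass current best near the resting potential and in flies also serve potassium transport in the Malpighian tubule, Irk1 had a signal of 8.16 and 8.04 in FOXO hearts at 5 weeks, 8.58 and 8.34 in control hearts at 5 weeks, 8.99 and 8.63 in FOXO hearts at 1 week, and 8.19 and 8.12 in control hearts at 1 week. FOXO hearts at 1 week were the highest group and overlapped with no other, while FOXO hearts at 5 weeks overlapped with control hearts at 1 week. Irk1 therefore lay above control in FOXO hearts at 1 week and below it at 5 weeks, without overlap at either age. The fall of Irk1 with age in FOXO hearts was -0.71 ± 0.17 on the log2 scale (limma adjusted p = 0.0356), whereas in control hearts the value was 0.31 ± 0.17 (adjusted p = 0.417). The FOXO effect was -0.37 ± 0.17 at 5 weeks (adjusted p = 0.251) and 0.66 ± 0.17 at 1 week (adjusted p = 0.11). The difference between the ages was tested directly and was -1.03 ± 0.24 (adjusted p = 0.0459).

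The second probe set of Irk1, 1626256_at, was lower in FOXO than in control hearts at 5 weeks (log2 fold change -0.81 ± 0.20, adjusted p = 0.0459). This probe set was among the dimmest 40%, with means of 4.14 and 4.95 in these groups. Its value with age in FOXO hearts was -0.70 ± 0.20 (adjusted p = 0.0596), its FOXO effect at 1 week was 0.09 ± 0.20 (adjusted p = 0.873) and the change of the effect -0.90 ± 0.28 (adjusted p = 0.111). Both probe sets thus had the same signs in these comparisons and differed in which of them passed.

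Both Irk1 calls needed nearly the full set of arrays. The fall with age in FOXO hearts no longer passed without any 1 array but FOXO 1 week replicate 2, with adjusted p between 0.0516 and 0.164, nor with arrayWeights (0.129), with eBayes with trend and robust (0.0635) or with the 4 arrays of the compared groups alone (0.165). The changed FOXO effect did not pass without any single array outside FOXO 1 week (largest adjusted p = 0.179), with eBayes with trend and robust (0.088), with arrayWeights (0.0545) or without dim probe sets (0.0541). At 1 week the FOXO effect on Irk1 was 0.84 without FOXO 1 week replicate 2 and 0.48 without replicate 1. Each of these 1 week values rests on 1 FOXO array. Replicate 2 had low signal of the female-specific transcripts, as had both control 1 week arrays, and replicate 1 had high signal. The log2 fold changes of Irk1 kept their sign where an array of a compared group was left out. Under the other alternatives named here they could not change.

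Irk3 had the widest separation of group means among the 10 channels. It had a signal of 4.34 and 4.11 in FOXO hearts at 5 weeks, 5.68 and 5.51 in control hearts at 5 weeks, 5.03 and 3.97 in FOXO hearts at 1 week, and 4.36 and 4.39 in control hearts at 1 week. The control 5 weeks arrays were the highest 2 of the 8. At 5 weeks Irk3 averaged 4.22 ± 0.16 in FOXO and 5.59 ± 0.12 in control hearts (SD, n = 2 each), a log2 fold change of -1.37 ± 0.32 (limma adjusted p = 0.0385). In control hearts the difference between 5 weeks and 1 week was 1.22 ± 0.32, which did not pass (adjusted p = 0.078). The FOXO effect changed between the ages by -1.49 ± 0.45, which did not pass either (adjusted p = 0.103).

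The fit shares 1 estimate of the spread over the groups, and the wide FOXO 1 week pair of Irk3 enters it. Without both FOXO 1 week arrays, an alternative chosen after seeing the data, the higher Irk3 signal with age in control hearts passed with the same log2 fold change (adjusted p = 0.000719). The FOXO effect at 5 weeks, by contrast, was lost with the removal of any single array outside FOXO 1 week (adjusted p between 0.0864 and 0.212). By the probe sets that stand for the channels, Irk3 was the only one of the 10 among the dimmest 40% of probe sets. Of 9 Malpighian tubule markers 7 had a probe set, and their summed linear signal was 3017 to 3287 in FOXO hearts at 5 weeks, 3230 to 3581 in control hearts at 5 weeks, 4271 to 5427 in FOXO hearts at 1 week, and 4790 to 4837 in control hearts at 1 week. The sum weighs bright genes most, on most arrays ClC-a and NKCC. At 5 weeks 3 of the 7 had a higher and 4 a lower mean in FOXO than in control hearts. With age in control hearts 1 was higher and 6 were lower. ZnT35C had 6.06 and 6.17 in FOXO and 4.79 and 4.78 in control hearts at 5 weeks. On FOXO 1 week replicate 1 it had 11.57, against 4.47 on replicate 2. None of the 7 was called between FOXO and control hearts at 5 weeks or between the ages in control hearts. Uro, a defining tubule gene, had no probe set with a single symbol here.

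Irk2 varied little. Its signal was 5.92 and 6.16 in FOXO hearts at 5 weeks, 6.07 and 5.94 in control hearts at 5 weeks, 5.63 and 5.91 in FOXO hearts at 1 week, and 5.82 and 5.38 in control hearts at 1 week. The FOXO and control arrays overlapped at both ages. The 95% interval of the FOXO effect at 5 weeks ran from -0.44 to 0.51. Irk2 was the only one of the 10 whose mean was higher at 5 weeks than at 1 week in FOXO hearts (log2 fold change 0.27 ± 0.20, adjusted p = 0.381).

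Of the calcium-activated channels, SK, the small-conductance channel, had a signal of 9.76 and 9.60 in FOXO hearts at 5 weeks, 10.21 and 9.84 in control hearts at 5 weeks, 10.31 and 10.45 in FOXO hearts at 1 week, and 10.75 and 10.76 in control hearts at 1 week. The 4 groups did not overlap, and in each cross the 5 weeks arrays lay below the 1 week arrays. The log2 fold change of SK between 5 weeks and 1 week was -0.70 ± 0.17 in FOXO hearts (adjusted p = 0.0358) and -0.73 ± 0.17 in control hearts, where it missed the threshold (adjusted p = 0.0517). These age differences were 0.03 ± 0.24 apart, with a 95% interval from -0.53 to 0.60 (adjusted p = 0.944). The FOXO effect itself was -0.34 ± 0.17 at 5 weeks (adjusted p = 0.269) and -0.38 ± 0.17 at 1 week (adjusted p = 0.345).

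The calls of SK changed with the arrays included. In FOXO hearts it did not pass without either control 1 week array or without either FOXO 5 weeks array (adjusted p between 0.0831 and 0.17), with arrayWeights (0.177) or with the 4 arrays of the compared groups alone (0.13). In control hearts it passed without either or both FOXO 1 week arrays (0.0162), with arrayWeights (0.00614) and with the 4 arrays compared (0.0208).

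SK is covered by 3 further probe sets, which did not all behave alike. 1627752_s_at was lower at 5 weeks than at 1 week both in FOXO hearts (log2 fold change -0.62 ± 0.15, adjusted p = 0.0334) and in control hearts (-0.67 ± 0.15, adjusted p = 0.0438). 1624040_at was lower with age in FOXO hearts (-0.71 ± 0.17, adjusted p = 0.0367), but in control hearts its value was 0.24 ± 0.17 (adjusted p = 0.565). 1635657_s_at, among the dimmest 40% of probe sets, had values of -0.58 ± 0.18 in FOXO hearts (adjusted p = 0.0794) and -0.07 ± 0.18 in control hearts (adjusted p = 0.903). All 4 probe sets of SK thus had negative values with age in FOXO hearts, 3 of them past the test, while in control hearts they differed in sign. They also differed in the FOXO effect at 1 week, which was 0.43 ± 0.17 on 1624040_at (adjusted p = 0.305), against -0.38 on the probe set that stands for SK. The change of the FOXO effect was -0.95 ± 0.25 on 1624040_at (adjusted p = 0.0625), -0.50 ± 0.26 on 1635657_s_at (adjusted p = 0.295) and 0.05 ± 0.21 on 1627752_s_at (adjusted p = 0.907). The similar age difference in both crosses therefore holds for 2 of the 4 probe sets. The sources used here do not give which SK transcripts each probe set detects.

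**Figure D2:**
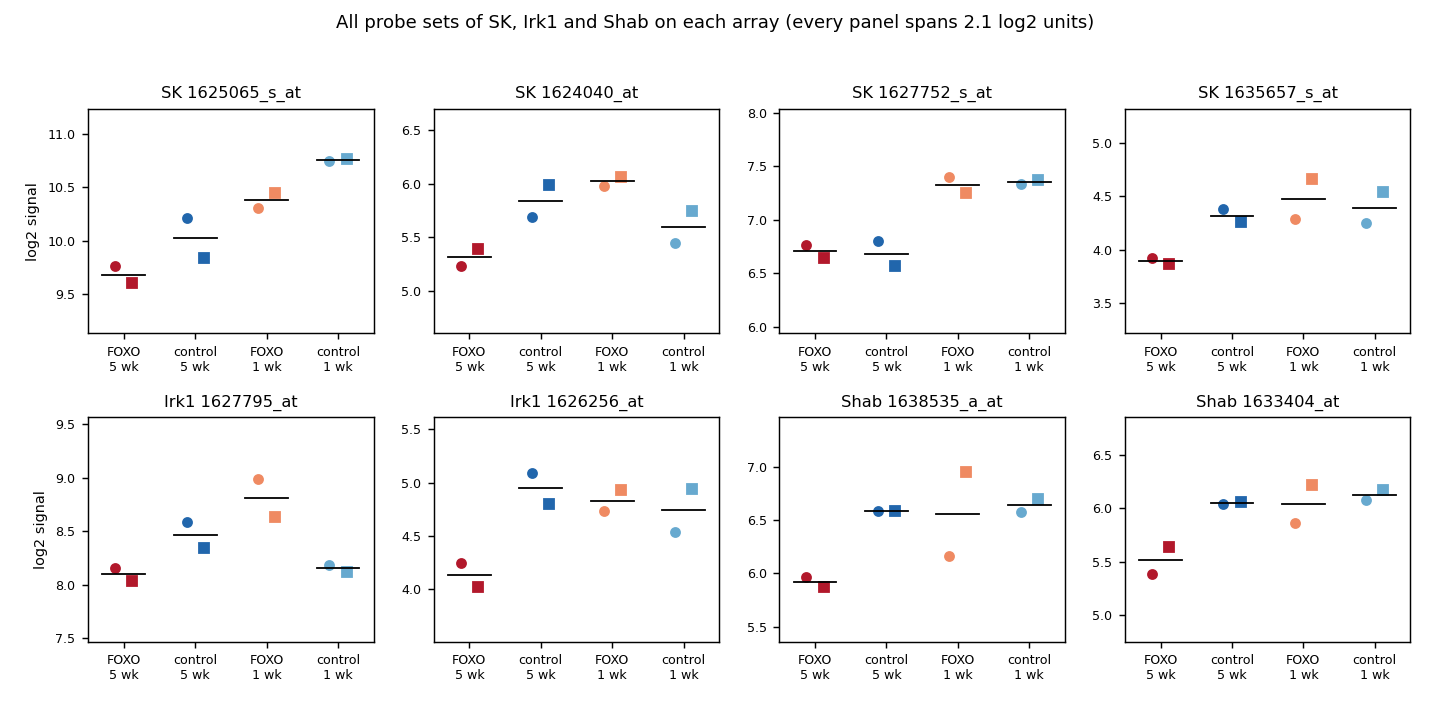
Log2 signal (vertical axis) of every single-symbol probe set of SK, Irk1 and Shab on each array, by group (horizontal axis), with circles and squares for replicates 1 and 2 and lines for group means. In FOXO hearts the 5 weeks means lie below the 1 week means in all 8 panels, whereas in control hearts SK 1624040_at and both Irk1 probe sets lie higher at 5 weeks.

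slo encodes the large-conductance channel opened by calcium and voltage. Its signal was 6.84 and 6.53 in FOXO hearts at 5 weeks, 6.66 and 6.55 in control hearts at 5 weeks, 6.67 and 7.89 in FOXO hearts at 1 week, and 7.15 and 7.25 in control hearts at 1 week. The FOXO 1 week pair differed by 1.22, the widest replicate gap of any of the 10 channels. In control hearts the 5 weeks arrays lay below the 1 week arrays without overlap, with a log2 fold change of -0.59 ± 0.36, which did not pass (adjusted p = 0.477), and which passed without both FOXO 1 week arrays (adjusted p = 0.0293). In FOXO hearts the value was -0.59 ± 0.36 (adjusted p = 0.293), but -1.20 without FOXO 1 week replicate 1 (adjusted p = 0.00217) and 0.02 without replicate 2 (adjusted p = 0.948), so its direction there rests on which of the pair is used. The FOXO effect on slo was 0.08 ± 0.36 at both ages and had no stable direction. At 1 week it was 0.69 without FOXO 1 week replicate 1 (adjusted p = 0.0759) and -0.53 without replicate 2 (adjusted p = 0.0619), and at 5 weeks it was -0.26 with quantile normalization and -0.29 with array medians centred.

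The voltage-gated channels are Shab, a delayed rectifier, Shal, which carries a fast inactivating current, and sei and eag, which belong to the ether-a-go-go family, sei being the fly relative of the human hERG channel. None of the 4 was called in any comparison by limma, and Shab, Shal and eag had an unadjusted p under 0.05 between FOXO and control hearts at 5 weeks, as did 24.4% of all probe sets. All 4 had lower arrays in FOXO than in control hearts at 5 weeks without overlap. Over the 10 channels 8 had groups that did not overlap in this comparison, 7 of them lower, where 62.4% of all probe sets did not overlap (45.1% lower, 17.3% higher). At 1 week 2 of the 10 did not overlap between FOXO and control hearts, against 44.9% (20.5% lower, 24.4% higher). Between the ages 7 of the 10 did not overlap in FOXO hearts, 6 of them lower, against 57.7% (37.8% lower, 19.9% higher), and 8 in control hearts, 3 of them lower, against 60.1% (26% lower, 34.1% higher).

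Shal had a signal of 8.60 and 8.56 in FOXO hearts at 5 weeks, 9.39 and 9.32 in control hearts at 5 weeks, 8.62 and 9.34 in FOXO hearts at 1 week, and 9.14 and 9.37 in control hearts at 1 week. FOXO 1 week replicate 1 lay with the FOXO 5 weeks arrays and replicate 2 with the control arrays. The FOXO effect on Shal at 5 weeks was -0.78 ± 0.24 (adjusted p = 0.1), and it passed with arrayWeights (0.0124), with the 4 arrays compared (0.0082) and without either or both FOXO 1 week arrays (0.00421). Shab had a signal of 5.97 and 5.87 in FOXO hearts at 5 weeks, 6.58 and 6.59 in control hearts at 5 weeks, 6.16 and 6.95 in FOXO hearts at 1 week, and 6.57 and 6.70 in control hearts at 1 week. Its FOXO 1 week arrays lay on either side of the control arrays, and the FOXO 5 weeks arrays were the lowest 2. The FOXO effect on Shab at 5 weeks was -0.66 ± 0.25 (adjusted p = 0.161), and it passed without both FOXO 1 week arrays (0.00638). It also passed with arrayWeights (0.0202), the 4 arrays compared (0.0169), quantile normalization (0.047) and array medians centred (0.0194). In these fits 17.8%, 18%, 14.4% and 51% of all probe sets were called. The second probe set of Shab gave -0.54 ± 0.17 at 5 weeks (adjusted p = 0.109).

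eag had a signal of 5.58 and 5.17 in FOXO hearts at 5 weeks, 6.21 and 6.01 in control hearts at 5 weeks, 5.93 and 6.23 in FOXO hearts at 1 week, and 5.86 and 5.94 in control hearts at 1 week. The FOXO 5 weeks arrays were the lowest 2 of the 8. Its values came close to the threshold without passing: -0.74 ± 0.19 between FOXO and control hearts at 5 weeks (adjusted p = 0.0589), -0.71 ± 0.19 between 5 weeks and 1 week in FOXO hearts (adjusted p = 0.0515), and -0.92 ± 0.27 for the change of the FOXO effect (adjusted p = 0.0964). Without both FOXO 1 week arrays the value at 5 weeks passed (adjusted p = 0.0165), where 22.8% of all probe sets were called. It also passed with quantile normalization (0.0119), arrayWeights (0.0166), the 4 arrays compared (0.034) and array medians centred (0.00808). There 14.4%, 17.8%, 18% and 51% of all probe sets were called. The age value in FOXO hearts was -0.86 without FOXO 1 week replicate 1 and -0.56 without replicate 2. The change of the FOXO effect was -1.07 and -0.77 in these fits.

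sei varied least of the 10, with group means between 9.03 and 9.39. Its FOXO effect was -0.36 ± 0.15 at 5 weeks (adjusted p = 0.215) and 0.01 ± 0.15 at 1 week (adjusted p = 0.98). The 95% interval at 1 week ran from -0.36 to 0.38.

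The voltage-gated channels are also expressed in neurons. Of 13 neuronal markers 12 had a probe set. Of these 11 had a lower mean in FOXO than in control hearts at 5 weeks, with a median log2 fold change of -0.54, and 0 of 12 were called by limma, where 69.6% of all probe sets were lower. Their summed linear signal was 1371 to 1598 in FOXO hearts at 5 weeks, 1834 to 2017 in control hearts at 5 weeks, 1490 to 2173 in FOXO hearts at 1 week, and 2222 to 2538 in control hearts at 1 week. The 8 muscle markers were lower in FOXO hearts at 5 weeks too, in all 8, with a median of -0.24 and 0 called by limma, and a summed signal of 35604 to 35998 against 41445 to 42350. At 1 week all 8 were lower as well (median -0.15, 0 called). With age all 8 were lower in both crosses, with medians of -0.25 in control and -0.39 in FOXO hearts. In each cross 1 of the 8 was called lower, against 4.57% and 5.82% of all probe sets. With age 10 of the 12 neuronal markers were lower in FOXO hearts (64.2% of all probe sets) and 5 in control hearts (42.5%). The part of either marker list in the channel values was not tested. In whole hearts, fewer cells of a type and less RNA per cell cannot be told apart.

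Ork1 is an open rectifier that carries a leak current. It had a signal of 7.64 and 7.68 in FOXO hearts at 5 weeks, 7.24 and 7.17 in control hearts at 5 weeks, 8.30 and 7.85 in FOXO hearts at 1 week, and 8.22 and 8.05 in control hearts at 1 week. The control 5 weeks arrays were the lowest and the FOXO 5 weeks arrays lay between them and the 1 week arrays, which overlapped between the crosses. In control hearts Ork1 averaged 7.21 ± 0.05 at 5 weeks and 8.14 ± 0.12 at 1 week (SD, n = 2 each), a log2 fold change of -0.93 ± 0.18 by limma (adjusted p = 0.0255). In FOXO hearts the value was -0.42 ± 0.18 (adjusted p = 0.165). Whether these differ is tested by the change of the FOXO effect, which was 0.51 ± 0.26 and did not pass (adjusted p = 0.285).

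At 5 weeks the difference between FOXO and control hearts was 0.45 ± 0.18 for Ork1 (adjusted p = 0.184), the only channel of the 10 with higher arrays in FOXO hearts at that age without overlap, and this passed without either or both FOXO 1 week arrays (0.0352). The fall with age in control hearts was not called once any single array outside FOXO 1 week was left out (adjusted p between 0.0623 and 0.209), with log2 fold changes between -1.02 and -0.85 in these fits. RNA integrity, taken as the log2 signal of 3' minus 5' probe sets over 3 control genes (larger where 5' ends are lost), stood at 1.55 and 1.40 in FOXO hearts at 5 weeks, 1.46 and 1.09 in control hearts at 5 weeks, 1.13 and 0.957 in FOXO hearts at 1 week, and 1.23 and 1.14 in control hearts at 1 week. Its part in the age comparisons was not tested.

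**Figure D3:**
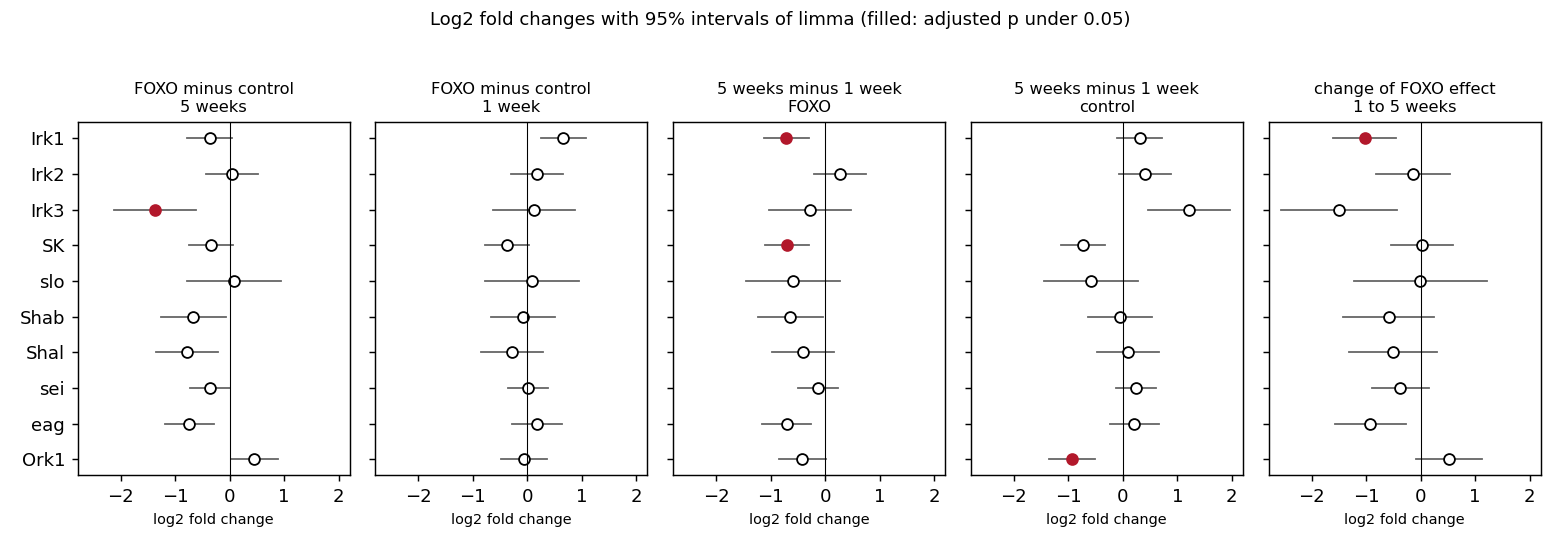
Log2 fold changes of the 10 channels (rows) in the 5 comparisons (panels), with 95% intervals of limma as lines and filled points for an adjusted p under 0.05. The 5 filled points are Irk3 for FOXO minus control at 5 weeks, Irk1 and SK for 5 weeks minus 1 week in FOXO hearts, Ork1 for 5 weeks minus 1 week in control hearts, and Irk1 for the change of the FOXO effect.

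Of 21 other names of potassium channel genes and their partners 19 had a probe set. KCNQ had none with a single symbol here, and CG8713 is another name of sand. With age in FOXO hearts 16 of 19 were lower at 5 weeks, against 64.2% of all probe sets, with a median log2 fold change of -0.57. Of the 19, 4 were called, all lower, where 15.2% of all probe sets were called (5.82% lower). In control hearts 13 of 19 were lower, against 42.5%, with a median of -0.26. There 2 were called, both lower, against 6.91% of all probe sets (4.57% lower). Between FOXO and control hearts at 5 weeks 15 were lower, against 69.6%, with a median of -0.37. In that comparison 1 was called, lower, against 10.4% (3.07% lower). At 1 week 10 were lower, against 44%, with a median of -0.18. By limma 0 were called at 1 week, against 4.33%, and 2 had an unadjusted p under 0.05, against 15.6%. For the change of the FOXO effect 1 was called, lower, against 9.41% (2.13% lower).

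The called genes outside the 10 were sand, galene, CG10864 and Elk. sand, a 2-pore channel known from sleep-control neurons of the fly brain, had a signal of 9.77 and 9.84 in FOXO hearts at 5 weeks, 9.92 and 9.89 in control hearts at 5 weeks, 10.28 and 10.81 in FOXO hearts at 1 week, and 10.96 and 11.10 in control hearts at 1 week. Both crosses were lower at 5 weeks without overlap, with a log2 fold change of -0.74 ± 0.19 in FOXO hearts (adjusted p = 0.0451) and of -1.13 ± 0.19 in control hearts (adjusted p = 0.0145). That of galene, also a 2-pore channel, was -1.16 ± 0.19 in FOXO hearts (adjusted p = 0.00723) and -1.03 ± 0.19 in control hearts (adjusted p = 0.0227).

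CG10864, a predicted 2-pore channel, had a signal of 4.56 and 4.44 in FOXO hearts at 5 weeks, 5.09 and 5.05 in control hearts at 5 weeks, 5.02 and 5.12 in FOXO hearts at 1 week, and 4.89 and 4.86 in control hearts at 1 week. The FOXO 5 weeks arrays were the lowest 2, and CG10864 lay among the dimmest 40% of probe sets. It was lower in FOXO than in control hearts at 5 weeks (log2 fold change -0.58 ± 0.13, adjusted p = 0.0342) and lower at 5 weeks than at 1 week in FOXO hearts (-0.57 ± 0.13, adjusted p = 0.0281). Its FOXO effect changed between the ages by -0.77 ± 0.18 (adjusted p = 0.0457). Elk, of the ether-a-go-go family like eag and sei, was lower at 5 weeks than at 1 week in FOXO hearts (log2 fold change -1.34 ± 0.28, adjusted p = 0.0196), with 3.72 and 3.83 at 5 weeks against 4.67 and 5.57 at 1 week. Elk too was among the dimmest 40%.

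Most of these calls were lost when arrays were left out. In control hearts those of sand and galene did not survive the removal of any single control array (adjusted p up to 0.127 for sand and 0.193 for galene). In FOXO hearts those of sand and CG10864 were lost with the removal of any single array outside FOXO 1 week (up to 0.18 and 0.14), that of Elk without either FOXO 5 weeks array (up to 0.114), and that of galene without FOXO 5 weeks replicate 1 (0.0576). With the 4 arrays compared none of these 4 calls was kept (0.071 to 0.2), and with arrayWeights those of sand (0.108) and CG10864 (0.15) were lost. Without FOXO 1 week replicate 2 the age difference in FOXO hearts was -0.89 for Elk and -0.47 for sand, both still called (adjusted p = 0.00307 and 0.038). The CG10864 call at 5 weeks and its changed FOXO effect were lost in the same 6 ways (up to 0.178 and 0.186) and with eBayes with trend and robust (0.052 and 0.07), and the change also with arrayWeights (0.0852). Further probe sets of Shaw, qvr, dysc and CG42340, whose brightest probe sets were not called, were called lower with age in FOXO hearts (log2 fold changes -1.03, -0.96, -0.64 and -1.15). Those of qvr, dysc and CG42340 were dim, among the dimmest 40% of probe sets. FOXO means at 5 weeks and 1 week were 2.78 and 3.73 for qvr, 3.46 and 4.10 for dysc, and 4.40 and 5.55 for CG42340. The lowest value of any probe set was 2.14. That of Shaw (-1.16, adjusted p = 0.0169) and another of qvr, also dim (-0.61, adjusted p = 0.0384), were called lower in FOXO than in control hearts at 5 weeks. That of CG42340 was called for the change of the FOXO effect (-1.34, adjusted p = 0.0461). No other further probe set of the listed genes was called in these comparisons. Of all probe sets 15.2% were called with age in FOXO hearts, 10.4% between FOXO and control hearts at 5 weeks and 9.41% for the change.

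**Figure D4:**
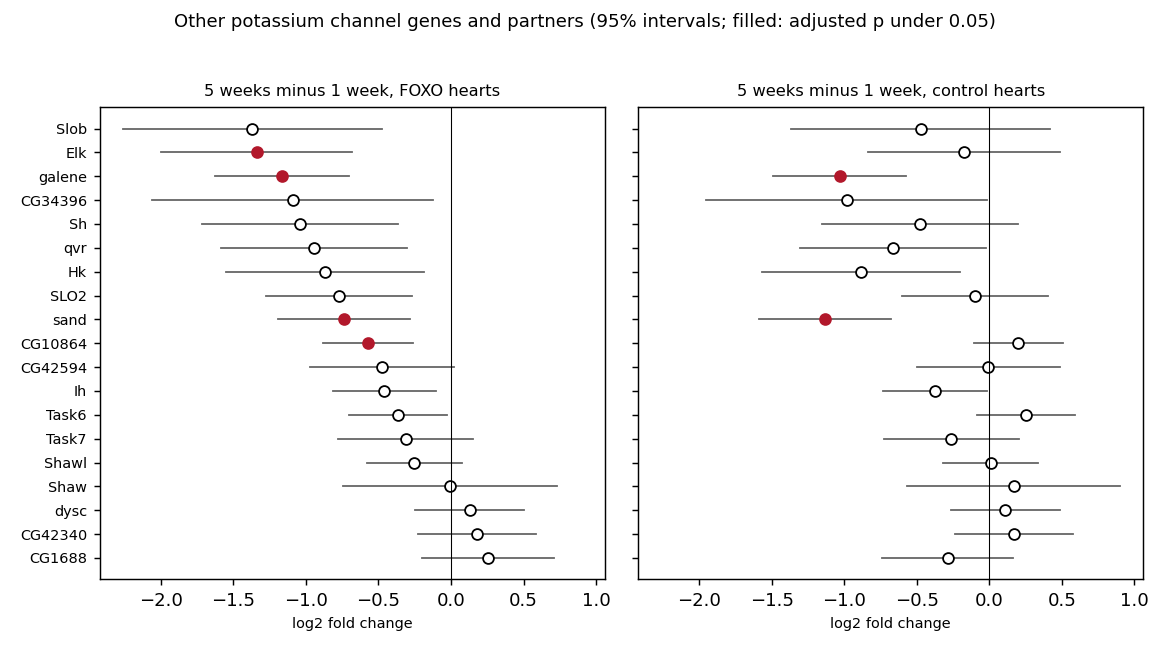
Log2 fold changes between 5 weeks and 1 week (horizontal axes) of the 19 other potassium channel genes and partners (rows) in FOXO hearts, left, and control hearts, right, with 95% intervals and filled points for an adjusted p under 0.05. In FOXO hearts Elk, galene, sand and CG10864 are filled, and in control hearts galene and sand.

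The genes whose profile over the 8 arrays lay closest to each called channel were found by the root mean square difference of log2 signal, with each gene centred on its own mean, among genes at or above the median level. For Ork1 these were 18w, a Toll family receptor (0.0971), and mRpL10 and mRpS11 of the mitochondrial ribosome (0.146 and 0.151). For SK they were Asph (0.128), the glycogen phosphorylase gene Glyp (0.132) and the glycogen synthase gene Glys (0.138). For Irk1 they were mol (0.0919), the insulator protein gene su(Hw) (0.0942) and Nin (0.112). For Irk3 the nearest genes were further off: the caspase gene Dronc (0.326), Ae2, an anion exchanger gene (0.335), and CG33298 (0.336). The root mean square spread of the channels themselves was 0.394 for Ork1, 0.413 for SK, 0.307 for Irk1 and 0.605 for Irk3.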

How the data were processed

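The authors deposited 1 log2 value per probe set and array (18952 probe sets, 2.14 to 14.46). Per the labels' protocols, suction was used to take fat and pericardial cells off the hearts, and the RNA was amplified for biotin labelling. Transcripts of both were still bright on every array. Fat body genes had medians from 11.75 and pericardial nephrocyte genes from 12.15, where all probe sets had medians between 6.05 and 6.43. The submitters' processing notes name limma, and the sources used here do not say how signals were summarised and normalized. Precision is limited by the number of arrays.

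Of 18952 probe sets 183 array controls were left out. Of the other 18769, 13647 carried 1 gene symbol, 402 several and 4720 none, and 13544 single symbols were matched to the reference table by gene ID. The deposited log2 values were fitted in R 4.3.3 with limma 3.58.1, 1 mean per group over the 8 arrays, with 4 residual degrees of freedom. Tests are two-sided, values are given as log2 fold change ± standard error, and group means as mean ± SD. The procedure was tested on simulated data.

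The members, the list of other potassium channel genes, the marker lists and the rule for named genes (all members, called genes of that list, the 3 nearest profiles of each called member) were chosen with earlier results of these data known. Marker medians not given in the text lay between 11.75 and 12.32 for 8 fat body genes, 12.15 and 12.61 for 6 pericardial nephrocyte genes, 10.02 and 11.39 for 8 hemocyte genes, and 9.29 and 10.47 for 5 heart transcription factors.

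Alternatives were an adjusted p under 0.1, a replicate block, arrayWeights, quantile normalization, array medians centred, eBayes with trend and robust, no dim probe sets (the lowest 40%), the 4 arrays compared, 1 probe set for each gene, other probe sets of a gene and each array left out. Leaving out both FOXO 1 week arrays was chosen after seeing the data.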

Additional observations from a re-analysis of the deposited data

Results flagged for a closer look

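The FOXO effect differed between the ages, by limma's test of that difference, for 2 potassium channel genes on the probe sets that stand for them. For Irk1 the change from 1 to 5 weeks was -1.03 ± 0.24 (adjusted p = 0.0459), with arrays of FOXO hearts below control at 5 weeks and above it at 1 week. For CG10864, among the dimmest 40% of probe sets, the change was -0.77 ± 0.18 (adjusted p = 0.0457). Neither passed once any single array outside FOXO 1 week was left out, with adjusted p between 0.0843 and 0.186. A further, dim probe set of CG42340 passed that test too (-1.34, adjusted p = 0.0461). Of all probe sets 9.41% passed it.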

How the results depend on the processing

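No called value of the 10 channels reversed its direction under any alternative. Only quantile normalization, centred medians, another probe set or leaving out an array of a compared group could move a log2 fold change. Under the other alternatives its direction was fixed in advance, so those values say nothing about it. Of 880 recomputed values 715 kept direction and side of the threshold, 40 were no longer called, 80 became called and 45, called in neither fit, changed sign. The number of channels called between FOXO and control hearts at 5 weeks, 1, became 7 with centred array medians (51% of all probe sets called), 4 with arrayWeights (17.8%) or with the 4 arrays compared (18%), 5 without both FOXO 1 week arrays (22.8%), 3 with quantile normalization (14.4%), 2 at an adjusted p under 0.1 and 0 without dim probe sets, which leave out Irk3. At 1 week the 0 calls stayed 0 except without single arrays (0 to 4, the 4 without FOXO 1 week replicate 2, with 28.6% of all probe sets called). With age in FOXO hearts the 2 calls became 7 with centred medians (50.2%), 1 with eBayes with trend and robust (15.5%), and 0 with arrayWeights (9.35%) or with the 4 arrays compared (7.57%). With age in control hearts 1 became 4 with arrayWeights (19.6%), with the 4 arrays compared (19.3%) or without both FOXO 1 week arrays (17.5%). It became 3 at an adjusted p under 0.1 (9.49%), and 2 with centred medians (8.21%). With 1 probe set per gene it was 2 as well, with 1179 of 11982 genes called. For the change of the FOXO effect 1 became 6 with centred medians (47.9%), and 2 with quantile normalization (12.7%) or at an adjusted p under 0.1 (12.6%). It was 0 with eBayes with trend and robust (9.32%), and also without dim probe sets, with 1082 probe sets called. Leaving out single arrays gave 0 to 5 calls between FOXO and control hearts at 5 weeks, 0 to 5 with age in FOXO hearts, 0 to 4 with age in control hearts and 0 to 6 for the change. In these 4 comparisons the highest counts came without a FOXO 1 week array, with 22.8%, 23.9%, 17.5% and 16.9% of all probe sets called, and the counts of 0 without a control or FOXO 5 weeks array. The cause was not tested.

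Centring the medians moved the median log2 fold change of all probe sets from -0.16 to -0.52 between FOXO and control hearts at 5 weeks, from -0.15 to -0.49 with age in FOXO hearts, from 0.05 to 0.21 with age in control hearts and from 0.04 to 0.18 between FOXO and control hearts at 1 week. The number of all probe sets called at 5 weeks between FOXO and control hearts, 1956, lay between 1152 without dim probe sets and 9573 with centred medians, with 70.6% higher as deposited, 51.8% after quantile normalization and 13.9% with centred medians. The share higher moved from 61.8% to 16.7% with age in FOXO hearts, from 33.9% to 52.6% with age in control hearts and from 77.3% to 14.6% (57.7% after quantile normalization) for the change. With age in FOXO hearts 2861 became 1421 with the 4 arrays compared and 9415 with centred medians. With age in control hearts 1297 became 605 without control 1 week replicate 1 and 3681 with arrayWeights. At 1 week 813 became 274 with the 4 arrays compared and 5377 without FOXO 1 week replicate 2, and for the change 1766 became 1082 without dim probe sets and 8997 with centred medians.

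With the replicate number as a block the counts of channels called were 1, 0, 2, 1 and 1 in the order FOXO effect at 5 weeks and at 1 week, age in FOXO and in control hearts, and change, as without it. Of all probe sets 10.1%, 3.96%, 14.6%, 6.55% and 8.98% were then called, in the same order. Deviations of same-numbered replicates correlated between groups at 0.0133 to 0.332, highest between FOXO and control hearts at 5 weeks. As 4 of the 6 values were under 0.1 and the labels name nothing shared, the numbers were not taken to pair the arrays. The block moved CG10864 to an adjusted p of 0.0537 at 5 weeks and 0.0691 for the change.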
